A study of Mus musculus with 7 samples.

Results

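The nuclear genes for subunits of the mitochondrial respiratory chain were examined in lung endothelial cells of mouse embryos that were labelled wild-type or as lacking Sash1. Members were every gene whose platform symbol begins as the standard symbols of these subunits do. The openings were Nduf with a, b, c, s or v and a digit, Uqcr, Atp5, and Cox4 to Cox8 with a, b or c. Sdha to Sdhd were matched whole. Only probe sets that name 1 gene were used, and the brightest over the arrays stood for each gene. This gave 78 of 22180 named genes: 33 of complex I, 4 of complex II, 8 of complex III, 15 of complex IV and 18 of complex V, among them the pseudogenes Uqcrh-ps1 and Atp5c1-ps. The symbol rule uses no difference between labels, and only the choice of probe set used measured levels. Of the 78, 76 passed the filter on dim genes, and Cox7b2, a testis isoform, and Atp5c1-ps did not. A further 9 matching genes (Cox6c, Ndufb2, Ndufb4, Ndufb4b, Ndufb4c, Ndufs5-ps, Ndufs6, Ndufs6b and Uqcr10) lay only on probe sets shared with other genes and are not members.

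The chain sits in the inner mitochondrial membrane. Complexes I and II pass electrons from NADH and succinate to ubiquinone, complex III passes them to cytochrome c and complex IV to oxygen, and complex V makes ATP from the proton gradient. Endothelial cells are known for drawing much of their ATP from glycolysis, while their respiration is linked to proliferation and biosynthesis. Most subunits are encoded in the nucleus, and the few encoded in mitochondrial DNA had no named probe set and were not analysed here.

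RNA was measured on 7 Affymetrix arrays, 3 labelled wild-type and 4 labelled knockout (Sash1-/-). All embryos were at E18.5, on a C57BL/6 background, and the wild-type ones were littermates of the knockouts. Viable CD31+ CD45- CD326- cells were sorted from dissected lungs, a gate for endothelium without leukocytes or epithelium, and their RNA was amplified before hybridisation. No label says that each sample was a separate embryo, and the p-values cover only the spread among the samples as deposited, some of which may be technical. The labels do not give the design of the Sash1 allele. Values are the authors' normalized log2 signals, so a difference of 1 is a doubling, and every difference is the knockout-labelled mean less the wild-type-labelled mean.

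Sash1, the gene that the genotype labels name, did not separate the labels. Wild-type-labelled arrays 1 to 3 gave log2 signals of 9.02, 8.73 and 8.33, and knockout-labelled arrays 1 to 4 gave 8.29, 8.21, 8.68 and 8.13. The difference was -0.37 (95% interval -0.83 to 0.10), with a limma adjusted p of 0.971, and it was -0.20 without wild-type 1 and -0.55 without wild-type 3. Whether this probe set lies in the deleted part is not stated in the labels. It therefore does not settle them, and every direction below is between labels. Array medians over all probe sets ran from 3.86 to 4.03. The 10 pan-endothelial markers averaged 10.06 to 10.29 on the 7 arrays. Markers of cells that the gate should remove were also measured: the mean of 12 epithelial genes ran from 7.23 to 8.37 on the wild-type-labelled arrays and from 6.72 to 8.14 on the knockout-labelled ones, and the mean of 12 leukocyte genes from 5.69 to 6.16 and from 4.58 to 6.00.

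Promoter windows were read for the members, because genes of the chain are known to share binding sites of nuclear respiratory factors. RefSeq (GRCm38.p6) gave 69 windows for 64 of the 78 members, each from 250 bases before to 50 after a start site, 300 bases long. Both strands were searched for 5 motifs. The core letters of the NRF1 site, GCGCATGC, were in 10 of 69 member windows (14.5%) and in 2.71% of all 32851 windows. The letters AAGATGGC of the YY1 motif were in 9 (13%) and in 2.75% of all. Of those 9 genes, 7 had the YY1 match 23 to 39 bases after the start site. Since these letters contain ATG, they can also be the start of a coding sequence, and that was not tested. CCGGAAGT, a core recognised by ETS factors such as GABP, was in 5 (7.25%) and in 3.89% of all. The broad motifs CCAAT (NF-Y) and GGGCGG (SP1) were in 39.1% and 40.6% of member windows and in 37.4% and 35.7% of all. A match is a description of the letters, not of binding.

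3 windows with the NRF1 core are shown first, with NRF1 and ETS matches in capitals, so that its place in promoters of different complexes can be seen. In Cox6a1 and Ndufa11 the core is read on both strands of 1 palindromic site, and Uqcr11 has an NRF1 and an ETS match.

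Cox6a1, complex IV, chr5:115348909-115349208, minus strand: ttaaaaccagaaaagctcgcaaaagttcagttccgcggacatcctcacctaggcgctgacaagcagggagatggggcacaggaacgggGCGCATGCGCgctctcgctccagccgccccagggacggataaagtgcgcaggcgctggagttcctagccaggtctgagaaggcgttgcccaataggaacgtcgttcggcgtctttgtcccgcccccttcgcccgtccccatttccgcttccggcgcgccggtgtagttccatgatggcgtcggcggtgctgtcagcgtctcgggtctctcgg

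Ndufa11, complex I, chr17:56717512-56717811, plus strand: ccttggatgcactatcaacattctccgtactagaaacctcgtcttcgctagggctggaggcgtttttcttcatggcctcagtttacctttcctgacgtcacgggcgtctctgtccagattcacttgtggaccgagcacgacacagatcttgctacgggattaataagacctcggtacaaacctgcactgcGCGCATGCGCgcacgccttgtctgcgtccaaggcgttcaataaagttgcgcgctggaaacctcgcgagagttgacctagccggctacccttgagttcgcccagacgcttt

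Uqcr11, complex III, chr10:80406772-80407071, minus strand: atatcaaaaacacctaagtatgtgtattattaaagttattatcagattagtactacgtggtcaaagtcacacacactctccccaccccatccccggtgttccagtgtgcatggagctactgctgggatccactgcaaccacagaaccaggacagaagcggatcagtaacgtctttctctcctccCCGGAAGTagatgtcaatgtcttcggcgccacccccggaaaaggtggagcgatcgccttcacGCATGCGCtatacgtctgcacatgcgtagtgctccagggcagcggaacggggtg

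The next windows belong to the member of smallest p in complexes I, IV and V, in that order. The YY1 letters are in capitals in Ndufs7, and the windows of Cox7a1 and Atp5g1 held no NRF1, ETS or YY1 letters.

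Ndufs7, complex I, chr10:80249199-80249498, plus strand: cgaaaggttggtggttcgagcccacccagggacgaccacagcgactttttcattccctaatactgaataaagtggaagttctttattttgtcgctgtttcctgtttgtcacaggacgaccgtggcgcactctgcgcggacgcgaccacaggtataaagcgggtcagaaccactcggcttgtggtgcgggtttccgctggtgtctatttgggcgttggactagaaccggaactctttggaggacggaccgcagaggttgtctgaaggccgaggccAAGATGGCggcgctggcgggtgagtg

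Cox7a1, complex IV, chr7:30183921-30184220, plus strand: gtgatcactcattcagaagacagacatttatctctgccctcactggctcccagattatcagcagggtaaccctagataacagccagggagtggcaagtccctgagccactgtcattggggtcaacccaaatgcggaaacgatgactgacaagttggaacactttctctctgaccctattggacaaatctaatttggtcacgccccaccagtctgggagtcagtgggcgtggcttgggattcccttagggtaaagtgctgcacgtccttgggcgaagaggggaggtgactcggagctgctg

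Atp5g1, complex V, chr11:96075582-96075881, minus strand: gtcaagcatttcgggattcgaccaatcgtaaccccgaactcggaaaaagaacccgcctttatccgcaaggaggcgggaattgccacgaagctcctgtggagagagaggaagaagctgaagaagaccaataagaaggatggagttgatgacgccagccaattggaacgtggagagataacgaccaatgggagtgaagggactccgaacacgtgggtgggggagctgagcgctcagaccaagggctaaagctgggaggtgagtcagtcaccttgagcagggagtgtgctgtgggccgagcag

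As a group, the subunit genes showed nearly the same level under both labels. None of the 76 tested members passed limma at an adjusted p under 0.05, and none of all 16637 genes did (0%). The median member difference was 0.02, against 0.015 over all genes, and 48 members were on the higher side in the knockout-labelled mean and 28 on the lower (63.2% positive, against 54.4% of all genes). At an unadjusted p under 0.05 there was 1 member, Cox7a1 (1.32% of members, against 3.34% of all genes in either direction, 2.38% higher and 0.962% lower). No member had groups without overlap, against 2.45% of all genes (1.77% higher and 0.679% lower).

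The precision was better than for most genes on the array. The 95% interval lay within 1.5-fold in either direction for 68 of 76 members (89.5%), against 67.8% of all genes. The median half-width was 0.254 log2 units for members and 0.345 for all genes. The 8 members whose intervals reached beyond 1.5-fold were Atp5d, Atp5g1, Cox6a2, Cox6b2, Cox8b, Ndufa4l2, Ndufs5 and Uqcrh-ps1. A true difference inside these intervals was not excluded, and the intervals are not limits of detection. Larger differences could also miss an adjusted p under 0.05 with 7 arrays. Csrp3, a cardiac muscle marker read below, differed by -0.64 (95% interval -0.90 to -0.38), with an adjusted p of 0.971 by limma.

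**Figure D1:**
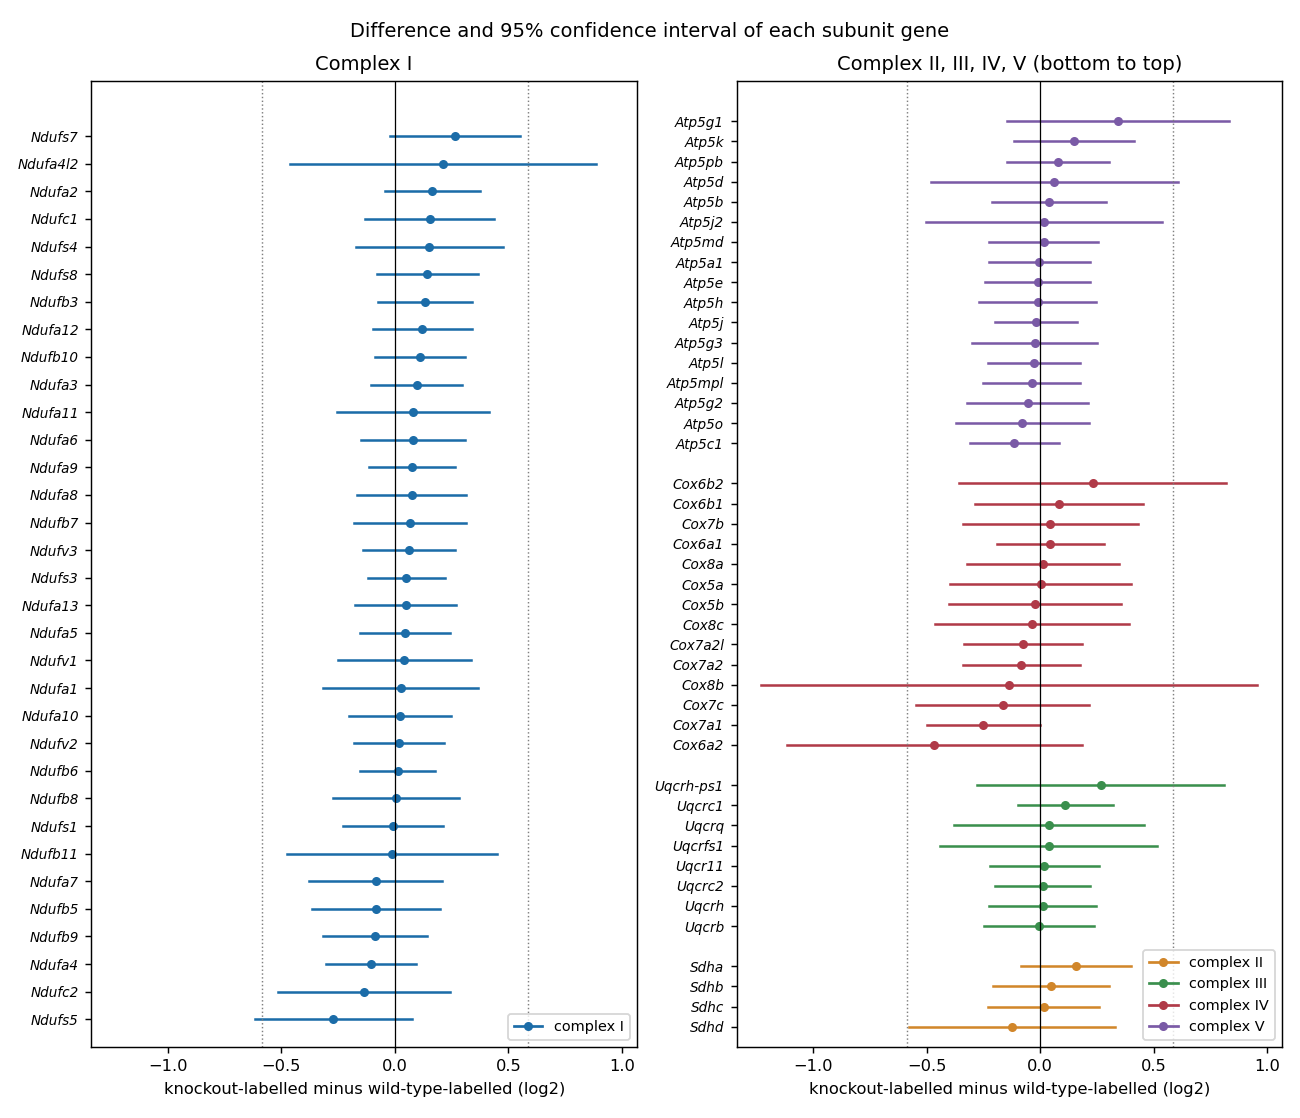
Difference between label means (log2, knockout-labelled minus wild-type-labelled) with its 95% interval for each of the 76 tested members, by complex. All intervals but that of Cox7a1 include 0, and the differences run from -0.46 in Cox6a2 to 0.34 in Atp5g1.

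The mean over the 76 members differed more between arrays of 1 label than between the labels. Wild-type 1, 2 and 3 had means of 8.19, 8.17 and 7.99, and knockout 1 to 4 had 8.05, 8.10, 8.17 and 8.23. The label means were 8.12 ± 0.11 (SD, n = 3) and 8.14 ± 0.08 (SD, n = 4), a ratio of 101%. The lowest array was wild-type 3 and the highest knockout 4, and the groups overlapped. The members' mean spanned 0.24 over the arrays. Other list means spanned 0.26 (assembly factors), 0.23 (mitochondrial ribosome), 0.23 (endothelial markers) and 0.19 (citric acid cycle). The mean of all tested genes spanned 0.045, but normalization keeps that mean nearly level, so it is no measure for a short list.

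Wild-type 3 was the lowest of the 7 arrays for 35 of 76 members (46.1%, against 18.1% of all genes), and knockout 1 for 20 (26.3%, against 14.2%). Knockout 4 was the highest for 27 (35.5%, against 18% of all genes). The direction of the members' mean rests on these arrays: without wild-type 3 it was -0.04, with 30 of 76 members positive, and without knockout 4 it was -0.01, with 37 positive. Without wild-type 1 it was 0.06. Levels of other gene lists moved over the same arrays: 18 immediate early and stress genes averaged 8.87, 8.64 and 7.31 on wild-type 1 to 3 and 8.34, 7.26, 9.14 and 6.75 on knockout 1 to 4. The 19 tested cell cycle genes averaged 5.85, 6.42 and 6.33, and 6.17, 6.65, 6.08 and 6.83. The 12 epithelial markers averaged 8.37, 7.99 and 7.23, and 8.05, 7.46, 8.14 and 6.72. The 12 leukocyte markers averaged 6.16, 5.99 and 5.69, and 5.92, 5.57, 6.00 and 4.58. Both marker means were lowest on knockout 4, where the members' mean was highest, but other arrays differed. Wild-type 1 had the highest marker means and a high members' mean (8.19). Wild-type 3 had the lowest members' mean (7.99) and a low epithelial mean (7.23). On knockout 1 the members' mean was low (8.05) and the epithelial mean was not. The part of these lists in the members' levels was not tested. In sorted bulk samples, fewer cells of a type and less RNA per cell cannot be told apart.

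**Figure D2:**
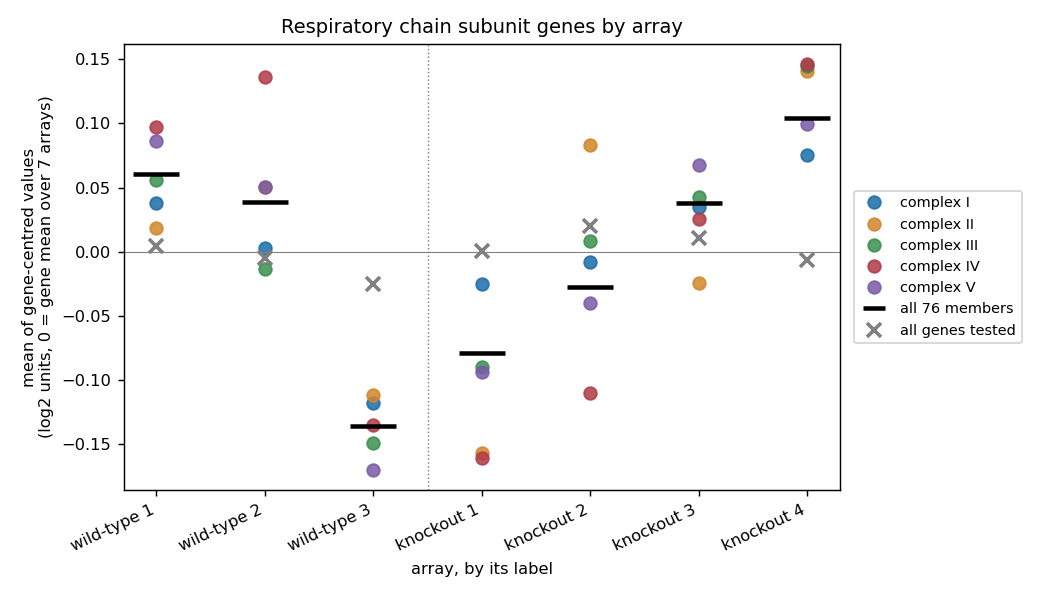
Mean log2 value of each complex on each array minus its mean over the 7 arrays, with all 76 members as a separate mark. Wild-type 3 and knockout 1 lie below 0 and knockout 4 above 0 in every complex.

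Complex I, the NADH dehydrogenase, had 25 of 33 members on the higher side in the knockout-labelled mean, with a median difference of 0.05. Members were assigned to complexes by symbol, so Ndufa4 and Ndufa4l2 are counted here and not in complex IV. Its mean was 8.28, 8.24 and 8.12 on wild-type 1 to 3 and 8.21, 8.23, 8.27 and 8.31 on knockout 1 to 4. The groups overlapped, and without wild-type 3 the difference of these means was -0.0015, with 19 of 33 positive. Of the 6 core subunits measured (Ndufs1, Ndufs3, Ndufs7, Ndufs8, Ndufv1 and Ndufv2), which hold the flavin and iron-sulfur centres or their frame, 5 were on the higher side. None of the 33 passed the test.

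Ndufs7, the core subunit next to the ubiquinone site, had the smallest p of the complex. Its log2 signal was 7.63, 7.42 and 7.51 on the wild-type-labelled arrays and 7.88, 7.63, 7.63 and 8.0 on the knockout-labelled ones. The highest wild-type-labelled value equalled the lowest knockout-labelled values. The difference was 0.27 (95% interval -0.02 to 0.55), with an adjusted p of 0.971 by limma. Ndufa2, an accessory subunit of the NADH-oxidising arm, measured 9.56, 9.40 and 9.38, and 9.54, 9.60, 9.58 and 9.73. Its difference was 0.17 (95% interval -0.05 to 0.38), and the groups overlapped.

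Ndufs5, an accessory subunit on the intermembrane side, was on the lower side. It measured 4.18, 4.33 and 4.79 on the wild-type-labelled arrays and 4.16, 4.20, 4.10 and 4.19 on the knockout-labelled ones. The difference of -0.27 rested on wild-type 3, the highest value, and was -0.09 without it. At the other end, Ndufb6, an accessory subunit of the membrane arm, had the smallest spread of all members, with values between 7.43 and 7.46. Ndufs3, a core subunit, lay between 6.13 and 6.26 and differed by 0.05.

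Complex II, succinate dehydrogenase, has all its subunits encoded in the nucleus, and all 4 were tested. Sdha, the flavoprotein that oxidises succinate, measured 7.97, 8.13 and 8.13 on the wild-type-labelled arrays and 8.10, 8.41, 8.17 and 8.26 on the knockout-labelled ones. The groups overlapped through knockout 1, and the difference was 0.16 (95% interval -0.08 to 0.40). The iron-sulfur subunit Sdhb and the membrane anchor Sdhc differed by 0.05 and 0.02. Sdhd, the other anchor, measured 7.82, 7.89 and 7.31, and 7.21, 7.58, 7.58 and 7.83. Its difference was -0.12 (95% interval -0.58 to 0.33), and it was low on wild-type 3 and knockout 1. Without wild-type 3 the difference was -0.305, and without knockout 1 it was -0.01.

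Complex III, the cytochrome bc1 complex, had 7 of 8 members on the higher side, with a median difference of 0.03. Without wild-type 3 the count was 3 of 8 and the median -0.02, and without knockout 4 it was 4 of 8. Uqcrc1, a core protein of the matrix side, measured 8.45, 8.35 and 8.26 on the wild-type-labelled arrays and 8.35, 8.54, 8.51 and 8.46 on the knockout-labelled ones. Its difference was 0.11 (95% interval -0.10 to 0.32). Uqcrh-ps1, a pseudogene of the hinge protein gene Uqcrh, was near the dim cutoff of 2.98 and differed by 0.27 (95% interval -0.28 to 0.81). Without knockout 4, its highest value, the difference was 0.093, and without knockout 3 it was 0.43. Signals of a pseudogene and its parent cannot be told apart where their probes are alike. Uqcrq, the ubiquinone-binding small subunit, differed by 0.04, and the differences of the 5 others lay between -0.0042 (Uqcrb) and 0.04 (Uqcrfs1, the Rieske iron-sulfur protein).

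Complex IV, cytochrome c oxidase, had 6 of 14 tested members on the higher side and 8 on the lower, with a median difference of -0.03. Its mean was 7.72, 7.76 and 7.49 on wild-type 1 to 3 and 7.47, 7.52, 7.65 and 7.77 on knockout 1 to 4, and the groups overlapped. Without wild-type 3, 2 of 14 were on the higher side, and without knockout 4 also 2. Without knockout 1 there were 8. This complex is built with alternative subunits in different tissues, and the 3 muscle forms Cox6a2, Cox7a1 and Cox8b were all on the lower side.

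Cox7a1, the heart and muscle form of subunit 7a, measured 4.96, 5.16 and 5.18 on the wild-type-labelled arrays and 4.86, 4.91, 4.96 and 4.67 on the knockout-labelled ones. The groups met at 4.96, in wild-type 1 and knockout 3. Its difference was -0.25 (95% interval -0.498 to -0.002), with an unadjusted p of 0.0489 and an adjusted p of 0.971 by limma. Cox6a2, the muscle form of subunit 6a, measured 5.94, 6.11 and 5.83, and 5.83, 4.72, 5.83 and 5.60. Its difference of -0.46 rested on knockout 2, the lowest value, and was -0.21 without it. Cox8b, the muscle form of subunit 8, measured 3.86, 5.17 and 4.11, and 3.27, 4.93, 4.10 and 4.68. It had the largest spread of the 76 members, with an SD of 0.662 over the 7 arrays, and its interval ran from -1.23 to 0.96.

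Cardiac muscle markers were read beside these forms, although the CD31+ gate should remove cardiac muscle cells. The 12 markers averaged 5.24, 5.80 and 5.33 on wild-type 1 to 3 and 5.16, 5.16, 5.20 and 5.10 on knockout 1 to 4. Of the 12, 3 were on the higher side, and 2 had an unadjusted p under 0.05 (0.962% of all genes were lower at that p), both lower and without overlap (0.679% of all genes). Without wild-type 1 these counts were 4 and 5, and 1 had such a p without knockout 1 or 4 or with the block. Over all 16637 genes the lower counts were 160 and 113 with all arrays, and 134 and 396 without wild-type 1. At that p, 125, 121 and 89 of all genes were lower without knockout 1, without knockout 4 and with the block. The median difference was -0.25, and -0.06 without wild-type 2, the highest array. One was Csrp3, a protein of the sarcomere's Z-disc, at 4.36, 4.68 and 4.34 against 3.79, 3.79, 3.77 and 3.93. The other was Myl7, the atrial myosin light chain, at 6.90, 7.95 and 6.72 against 5.43, 6.24, 6.71 and 5.33. Neither passed adjustment, and their part in the values of the muscle forms was not tested.

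The widely expressed partners of these forms differed little between labels. Cox6a1 differed by 0.045 (95% interval -0.19 to 0.28), Cox7a2 by -0.08 (-0.34 to 0.17) and Cox8a by 0.01 (-0.32 to 0.35). Cox8c, the testis form, differed by -0.03. Cox6b1 differed by 0.085 and the testis form Cox6b2 by 0.23 (-0.36 to 0.82), or 0.005 without wild-type 3. Cox5a and Cox5b, which are separate subunits and not alternative forms, differed by 0.0025 and -0.02. Cox7c measured 5.75, 5.54 and 5.47 on the wild-type-labelled arrays and 5.47, 5.47, 5.05 and 5.70 on the knockout-labelled ones. Its difference was -0.16, or -0.04 without knockout 3. Cox7a2l, a factor linked to supercomplexes of complexes III and IV, differed by -0.075.

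The subunit 4 pair lies outside the symbol pattern and was read separately. Cox4i1, the common form, differed by 0.0083 (95% interval -0.26 to 0.27). Cox4i2, a form known for its high level in lung and its response to oxygen, measured 6.60, 6.22 and 6.07 on the wild-type-labelled arrays and 6.14, 6.01, 6.36 and 6.05 on the knockout-labelled ones. Its difference was -0.16 (95% interval -0.51 to 0.20), and the groups overlapped. Without wild-type 1, the highest value, it was -0.005, and without wild-type 3 it was -0.27. Ndufa4, first assigned to complex I and now placed with complex IV, differed by -0.105 (95% interval -0.30 to 0.09). Its hypoxia-responsive relative Ndufa4l2 measured 7.76, 7.98 and 7.15, and 8.34, 7.46, 7.48 and 8.09. It differed by 0.21 (95% interval -0.46 to 0.89), and by -0.03 without wild-type 3.

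**Figure D3:**
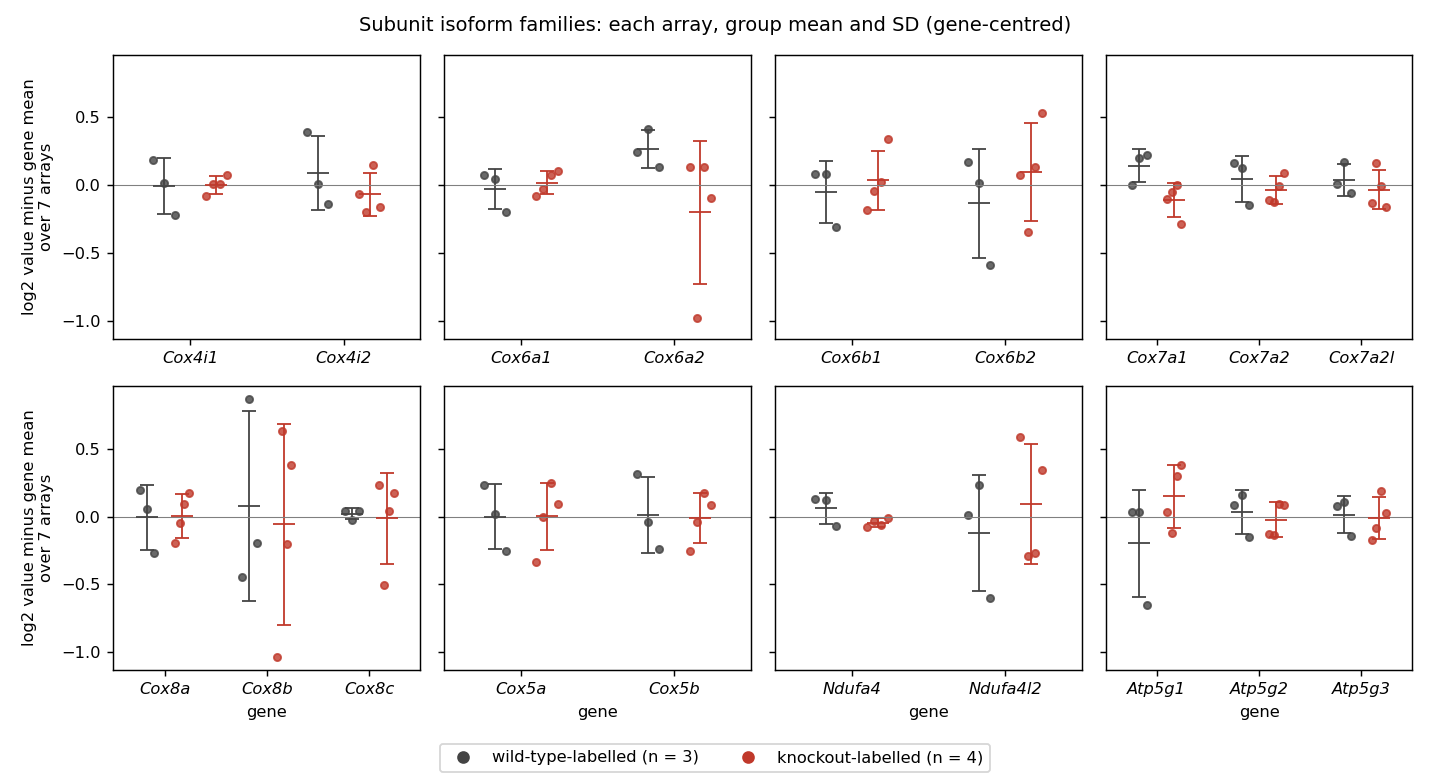
Log2 value of each subunit form on each array minus that gene's mean over the 7 arrays, with the label mean and SD (n = 3 wild-type-labelled, n = 4 knockout-labelled). The 2 labels overlap or meet for every form shown, and Cox8b has the widest spread.

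Complex V, the ATP synthase, had 7 of 17 tested members on the higher side and 10 on the lower, with a median difference of -0.01. Its mean was 8.75, 8.71 and 8.49 on wild-type 1 to 3 and 8.57, 8.62, 8.73 and 8.76 on knockout 1 to 4, and the groups overlapped. Without wild-type 3, 4 of 17 were on the higher side, and 12 without wild-type 2 or without knockout 1. Of the catalytic head (Atp5a1, Atp5b, Atp5c1, Atp5d and Atp5e), 2 of 5 were on the higher side. The alpha subunit Atp5a1 differed by -0.0033 and the beta subunit Atp5b by 0.04. Atp5c1, the central stalk subunit, measured 5.31, 5.39 and 5.27, and 5.24, 5.19, 5.30 and 5.11, a difference of -0.11 (95% interval -0.31 to 0.08).

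The c-ring that rotates in the membrane is encoded by 3 genes for an identical mature protein. Atp5g1 measured 3.82, 3.82 and 3.14 on the wild-type-labelled arrays and 3.82, 3.67, 4.09 and 4.17 on the knockout-labelled ones. These values lay close above the dim cutoff of 2.98. The Atp5g1 difference of 0.34 (95% interval -0.14 to 0.83) was the highest of all members. It rested on wild-type 3, without which it was 0.12. Atp5g2 and Atp5g3 differed by -0.055 and -0.02. Atp5k, the subunit e of synthase dimers, measured 10.71, 10.72 and 10.64, and 10.74, 10.70, 10.83 and 11.09, a difference of 0.15 (95% interval -0.11 to 0.41) with the highest value on knockout 4, and 0.067 without that array. Atp5j, a peripheral stalk subunit, lay between 6.53 and 6.67. Atpif1, the inhibitor of the synthase and no member, differed by 0.14 (95% interval -0.08 to 0.35).

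**Figure D4:**
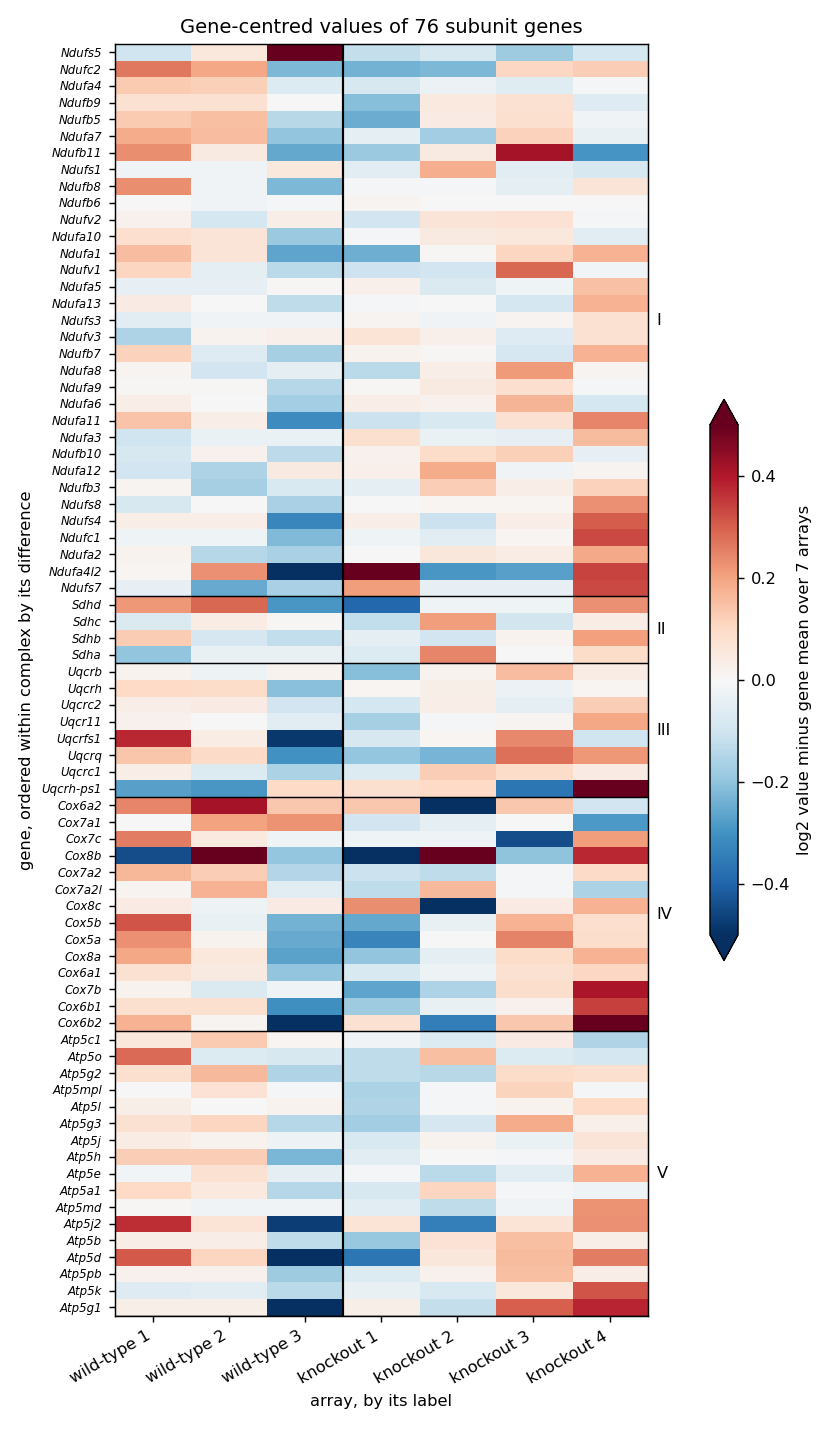
Log2 value of each of the 76 tested members on each array minus its own mean over the 7 arrays, in colour, by complex. The columns of wild-type 3 and knockout 1 are mostly below the members' means and that of knockout 4 mostly above.

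Of 9 members with several probe sets, 4 had probe sets that differed in sign (Atp5e, Cox5b, Cox7b and Ndufa8). In Cox5b the probe set used differed by -0.02 and the other by 0.11. In Atp5e they differed by -0.01 and 0.04.

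The genes that build the complexes were then read beside the subunits. Of 43 tested assembly factors (46 listed), 32 were on the higher side in the knockout-labelled mean, with a median difference of 0.11. At an unadjusted p under 0.05, 5 were higher and 1 lower (14%, against 3.34% of all genes, 2.38% higher), and 7 had no overlap, 6 of them higher (1.77% of all genes). None passed adjustment. The count of 5 higher was 3 without knockout 2, and 1 with the replicate number as a block. Over all genes the same count was 396, and 327 and 136 under those settings. The count of 6 without overlap was 11 without wild-type 1, where that of all genes rose from 295 to 867.

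Sdhaf4, which helps to assemble complex II, measured 6.33, 6.49 and 6.24 on the wild-type-labelled arrays and 6.85, 6.75, 6.58 and 6.91 on the knockout-labelled ones. Every knockout-labelled value was above every wild-type-labelled one. The difference was 0.42 (95% interval 0.16 to 0.68), with an unadjusted p of 0.0069 and an adjusted p of 0.971 by limma. Coa3, which promotes the making of COX1, a mitochondrially encoded subunit of complex IV, measured 8.06, 7.97 and 7.99, and 8.29, 8.62, 8.26 and 8.33. The groups did not overlap, and the difference was 0.37 (95% interval 0.11 to 0.62), with an adjusted p of 0.971 by limma.

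Mitochondrial ribosome genes, which serve the translation of the mitochondrially encoded subunits, had 57 of 71 on the higher side, with a median difference of 0.10. At an unadjusted p under 0.05, 6 were higher and none lower (8.45%, against 3.34% of all genes, 2.38% higher), and 4 had no overlap, all higher (1.77% of all genes). With the replicate number as a block, 1 was higher and 1 lower at that p (136 and 89 of all 16637 genes). None passed adjustment. The count on the higher side was 44 without wild-type 3 (62%), and the count of 6 was 2 without wild-type 2, knockout 3 or knockout 4 and 3 without knockout 2. At that p, the 396 higher of all genes became 199 without wild-type 2, 458 without knockout 3, 273 without knockout 4 and 327 without knockout 2. The count of 4 was 11 without knockout 1 or without wild-type 3, and 10 without wild-type 1. Fewer arrays also raised this count over all genes, from 295 to 571 without knockout 1. It was 1404 without wild-type 3 and 867 without wild-type 1. Mrpl38, a large subunit protein, measured 5.92, 5.74 and 5.67 on the wild-type-labelled arrays and 6.19, 6.25, 6.02 and 6.45 on the knockout-labelled ones, without overlap. Its difference was 0.45 (95% interval 0.16 to 0.74). Mrpl14 measured 6.20, 6.31 and 5.88, and 6.48, 6.51, 6.49 and 6.58, a difference of 0.385 without overlap. These lists and the subunits were not tested against each other.

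Genes that feed or shape the chain gave smaller medians. Of 17 tested genes of the citric acid cycle, 12 were on the higher side, with a median of 0.05. Fh1, the fumarase, measured 7.04, 7.22 and 7.35, and 7.38, 7.79, 7.42 and 7.80, without overlap, a difference of 0.39 with an adjusted p of 0.971 by limma. Idh3a, a subunit of NAD-dependent isocitrate dehydrogenase, differed by 0.275 with overlap. Of 21 tested regulators of mitochondrial biogenesis, 13 were on the higher side, with a median of 0.06. Without knockout 2 there were 10, with a median of -0.02. Twnk, the mitochondrial DNA helicase, differed by 0.47 (95% interval 0.02 to 0.92), with an adjusted p of 0.971 by limma, and by 0.27 without wild-type 2. Tfb1m, which methylates mitochondrial ribosomal RNA, differed by 0.35. Of 12 tested supercomplex and cristae genes, 9 were on the higher side, with a median of 0.085. Immt and Chchd6, both of the MICOS complex, differed by 0.15 and 0.16. Leaving out wild-type 2 gave 0.065 for Immt, and leaving out wild-type 3 gave 0.052 for Chchd6. Of 6 tested chain genes outside the symbol pattern, 4 were on the higher side, with a median of 0.005, which was -0.03 without wild-type 3. They include Ndufab1, the mitochondrial acyl carrier protein, at 0.10.

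**Figure D5:**
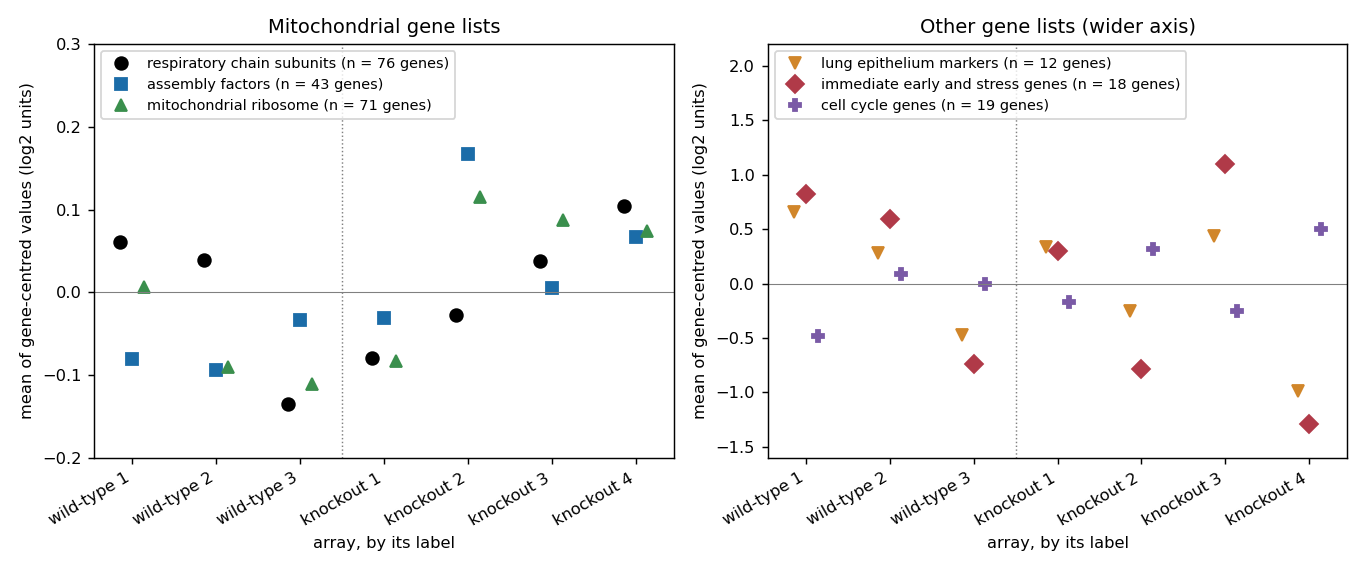
Mean log2 value of each gene list on each array minus its mean over the 7 arrays, for the subunits, assembly factors and mitochondrial ribosome (left) and for lung epithelium markers, stress genes and cell cycle genes (right, on a wider axis). Assembly factors are highest on knockout 2, while the subunit mean is highest on knockout 4.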

How the data were processed

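The values the authors deposited are normalized log2 signals, 1 for each probe set on each array. RMA in Affymetrix Expression Console 1.1 produced them, per the submitters' processing notes, and their log2 scale was read from the values. Of 41345 probe sets, 23521 had 1 gene symbol in the platform annotation, 1814 several and 16010 none listed. RefSeq (GRCm38.p6) held 99.2% of the gene identifiers. The annotation's build is not given in the sources used here, and only RefSeq windows carry coordinates. The dimmest 25% of genes (5543, below 2.98) were left out, which left 16637. The labels were compared by lmFit and eBayes of limma 3.58.1 in R 4.3.3, with genotype as the single term, two-sided, with Benjamini-Hochberg adjustment over all genes tested, and tested on simulated data. Arrays have no sequencing depth, and precision is limited by the 7 arrays.

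The members and lists were chosen with earlier results of these data known. Named genes were Sash1, the 3 members of smallest p in each complex with all of complex II, the subunit isoform families, the members of smallest and largest spread, and the genes of smallest p in each other mitochondrial list. Csrp3 and Myl7, the members whose probe sets disagreed, the head subunits and the ends of the complex III range were named after their values were seen. Alternatives were other filters, normalizations, variance models, array weights, probe set means, current symbols, the replicate block and each array left out.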

Additional observations from a re-analysis of the deposited data

Results flagged for a closer look

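Of 54 named values and means checked within the 4 knockout-labelled arrays, 2 had an array far from the others, and chance alone gives about 1 in 20. Ndufb6 was 7.46 on knockout 1 and 7.45 on the 3 others, a step of the last deposited decimal. Chchd6 was 5.75 on knockout 1 and 5.54 on the 3 others.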

How the results depend on the processing

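No member and no gene passed adjustment under any of the 19 settings, the main one included. The lowest limma adjusted p over all genes was 0.215, without wild-type 3 and knockout 3. Members without overlap were 2 with median centring (3.88% of all genes there), 5 with quantile normalization (5.03%) and 18 without wild-type 3 and knockout 3 (24%), and 0 to 11 with 1 array left out (15.3% of all genes without wild-type 3, which gave the 11). The members' mean difference was -0.05 without wild-type 3 and knockout 3 and -0.01 with array weights. No label says that samples with the same replicate number belong together. Same-number correlations of deviations were -0.18, -0.20 and -0.55, which cannot settle whether they shared a litter. With the replicate block the members' mean difference was -0.011, with 0 members called and 37 positive. At an unadjusted p under 0.05 556 genes became 225 with the block, which also takes up knockout 4 since it has no partner, 394 without knockout 4 alone, and 1310 with array weights. Of 841 values of named genes, 55 turned sign, in 16 genes, and the cause was not tested. With array weights, Sdhc was -0.026, Uqcrq -0.021, Cox6a1 -0.00061, Cox6b1 -0.0018, Cox8a -0.049, Cox8c 0.044, Cox4i1 -0.034 and Cox5a -0.054. With the replicate block, Sdhb was -0.013, Uqcrq -0.027, Cox6b1 -0.017, Cox8a -0.043, Cox4i1 -0.017 and Cox5a -0.027. Without wild-type 3 and knockout 3, Uqcrq was -0.19, Cox6a1 -0.058, Cox6b1 -0.04, Cox6b2 -0.01, Cox8a -0.15, Cox4i1 -0.10 and Cox5a -0.205. With the mean of probe sets Cox5b was 0.042. With median centring Cox4i1 was -0.00083 and Cox5a -0.0067, and with quantile normalization Cox5a was -0.014. With 1 array left out, the range was -0.013 to 0.125 for Sdhb, -0.05 to 0.06 for Sdhc, -0.10 to 0.12 for Uqcrq, -0.04 to 0.095 for Cox6a1, -0.045 to 0.16 for Cox6b1, -0.12 to 0.11 for Cox8a, -0.395 to 0.26 for Cox8b, -0.12 to 0.13 for Cox8c, -0.10 to 0.105 for Cox4i1, -0.12 to 0.12 for Cox5a, -0.15 to 0.13 for Cox5b, -0.0275 to 0.39 for Ndufa4l2, -0.145 to 0.01 for Atp5g2, -0.10 to 0.03 for Atp5g3 and -0.04 to 0.0067 for Atp5j.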

Other observations

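Identical deposited values were frequent. Of the 76 members, 18 (23.7%) had at least 3 identical values among the 7 arrays, against 31.6% of all genes tested. At least 4 identical values occurred in 2 members (2.63%) and in 14.1% of all genes.

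Of the other lists, 9 of 10 fibroblast and mural markers were on the higher side in the knockout-labelled mean (54.4% of all genes were). Without knockout 1 there were 5, and without wild-type 1 there were 6. Their list mean was 6.76, 7.23 and 6.87 on wild-type 1 to 3, and 7.55, 6.93, 7.28 and 6.78 on knockout 1 to 4, with overlap. Of 10 erythroid markers, 2 passed the filter on dim genes. Of 12 leukocyte markers, 1 was on the higher side, and of 12 epithelial markers, 2. The epithelial count was 7 when knockout 4 was left out, 6 when wild-type 1 was, and 4 when knockout 2 was. Of 19 cell cycle genes, 18 were on the higher side, and 11 without wild-type 1.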
